A study of Ovis aries with 32 samples.

Results

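The genes described here are those of lipolysis and of the lipid droplet surface, read in 32 RNA-seq libraries of Tan sheep, a Chinese breed that stores fat in its tail. They were chosen by name. Of 10 symbols listed, 9 were found in the authors' table of 30722 rows, of which 17372 carry a gene name: LIPE (ENSOARG00020019526), PNPLA2 (ENSOARG00020011721), MGLL (ENSOARG00020017820), ABHD5 (ENSOARG00020023264), PLIN1 (ENSOARG00020012577), PLIN2 (ENSOARG00020021608), PLIN4 (ENSOARG00020014173), PLIN5 (ENSOARG00020014098) and CIDEC (ENSOARG00020025085). G0S2, whose protein inhibits the first lipase of the pathway, was not found by name and was not analysed here. Male sheep aged 3 months, 24 in all, received either a basal pelleted diet (CON) or that diet with 1% succinic acid (SA) in the dry matter, 12 sheep per diet, for 60 days after 10 days of adaptation. Succinic acid is an intermediate of the tricarboxylic acid cycle. Tail fat, liver and tissue labelled hypothalamus and pituitary gave 4 libraries per diet each. The labels say that the 4 tissues came from 4 sheep of each diet, but not that libraries of equal number are of 1 sheep.

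Adipocytes and other cells keep triglyceride in lipid droplets, organelles with a neutral lipid core and a coat of perilipins. The lipases act in turn: adipose triglyceride lipase (PNPLA2) releases a fatty acid from triglyceride, hormone-sensitive lipase (LIPE) cleaves the diglyceride, and monoglyceride lipase (MGLL) cleaves the last ester bond. ABHD5 activates PNPLA2, and in unstimulated adipocytes the coat protein PLIN1 holds ABHD5 away from it until protein kinase A phosphorylates PLIN1. In liver PLIN2 is the usual coat, and CIDEC lets adipocytes build large droplets by moving lipid between droplets that touch.

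The values are in TPM, a share of transcripts that is corrected for transcript length, so levels can be compared between genes. The sums per library lay between 936939 and 987320 TPM. TPM keeps no read counts, so the depth is unknown. Transcripts that take more of a library lower all others in it. The share of mitochondrially encoded transcripts was 20.2% to 27.8% in the control livers, 51.7% to 70.9% in the livers with SA, and 22.5% to 70.6% across tail fat. Adipocyte-defining ADIPOQ stood at 1071 to 9604 TPM in the 8 tail fat libraries and hepatocyte-defining ALB at 3933 to 67922 TPM in the 8 liver libraries. The libraries labelled hypothalamus held AVP at 0 to 1.41 TPM and those labelled pituitary held PRL at 0 to 1.79 TPM with CGA listed at 0, while the neuronal SNAP25 was at 372 to 1404 TPM across these 16. HCRT was at 0.57 to 3.28 TPM in those labelled hypothalamus and at 0 to 5.87 TPM in those labelled pituitary. POMC was at 2.66 to 4.97 TPM in those labelled pituitary and at 2.62 to 8.52 TPM in tail fat. The hormone markers of these 16 libraries therefore do not show the labelled tissues. The libraries are called here by their labels, and together the labelled brain tissues, after their neuronal SNAP25. In tail fat CON 2 and SA 1, and in no other tail fat library, the SELENOP neighbour CCDC152 was near 0 (0.12 and 0.07 TPM against 57.8 to 186 TPM). SELENOP itself was at 972 TPM in CON 2 and 598 TPM in SA 1, against 46.0 to 197 TPM in the others. The differences between diets in tail fat are also given without both libraries.

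On the control diet the most abundant of the 9 genes was CIDEC in tail fat, PLIN2 in liver and PNPLA2 in both labelled brain tissues. CIDEC in tail fat stood at 1078 ± 309 TPM (SD, n = 4), which ranked 92nd among all rows by mean and made up 46.4% of the summed TPM of the 9 genes. PLIN1 at 332 ± 285 TPM and LIPE at 329 ± 264 TPM followed, then PNPLA2 at 229 ± 47.9 TPM and PLIN4 at 215 ± 217 TPM. In liver PLIN2 held 69.3% of the sum, at 277 ± 73.4 TPM, ahead of PNPLA2 at 38.8 ± 10.1 TPM and MGLL at 38.4 ± 10.0 TPM. PNPLA2 held 35.1% in the libraries labelled hypothalamus and 33.2% in those labelled pituitary, followed by LIPE (26.7% and 22.8%).

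**Figure D1:**
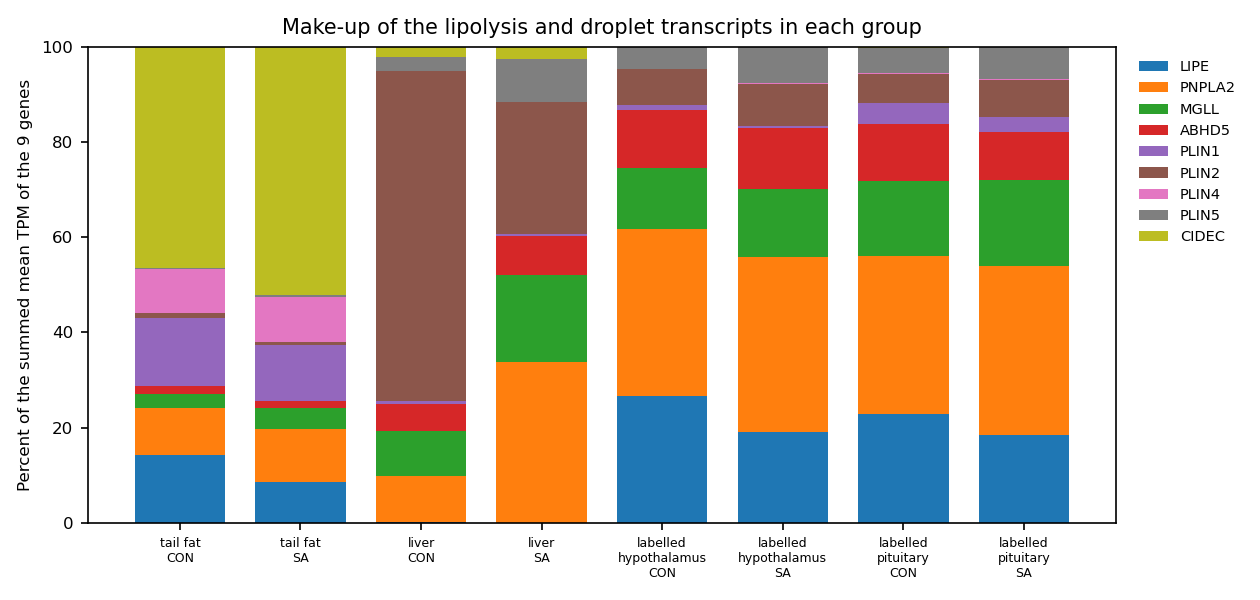
Share of each of the 9 genes in their summed mean TPM (y axis, percent), for the 8 groups of tissue and diet (x axis, 4 libraries each). CIDEC is the largest part in tail fat at 46.4% (CON) and 52.2% (SA), and PLIN2 falls from 69.3% to 27.8% of the sum from CON to SA in liver.

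Levels were compared between tissues in the 16 control libraries by limma on log2(TPM + 1), with Benjamini-Hochberg adjustment over all 15929 genes tested and a threshold of 0.05. Differences below are on that scale. The median difference of all genes was −0.0065 for tail fat minus liver. It was −0.79 and −1.01 for tail fat, and −0.73 and −0.97 for liver, minus labelled hypothalamus and pituitary. Make-up differed too: tail fat CON held 22.5% to 70.6% mitochondrial transcripts and CCDC152 at 0.12 to 162 TPM, liver CON 20.2% to 27.8% and 0 TPM. The part of make-up in the tissue differences was not tested beyond the scalings given below. Between tail fat and liver 8 of the 9 genes passed, where 44.1% of all genes did. The background was 67.4% for tail fat against labelled hypothalamus (9 of 9 genes passed), 71.4% against labelled pituitary (8 of 9), 68.2% for liver against labelled hypothalamus (7 of 9), 73.1% against labelled pituitary (7 of 9) and 13.1% between the labelled brain tissues (1 of 9). PLIN4 entered this test through its tail fat level alone, so its passing was given by the filter.

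Of the lipases, LIPE differed most between tail fat and liver. Its TPM in liver CON was 0.25, 0.23, 0.23 and 0.26, against 365, 689, 114 and 149 in tail fat CON. The difference was 7.69 (SE 0.49, limma adjusted p = 4.36e-10). The labelled pituitary (9.93 to 22.6 TPM) and hypothalamus (6.44 to 23.5 TPM) came between, with ranges that overlapped, and LIPE was lower in liver than in either (differences of −3.79, adjusted p = 1.82e-06, and −3.43, adjusted p = 6.64e-06). Liver thus carried transcripts of the first and last lipases of the series while that of the middle one was near 0.

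PNPLA2 was higher in tail fat (158 to 260 TPM) than in liver (32.2 to 53.6 TPM) by 2.54 (SE 0.25, limma adjusted p = 2.11e-07). Liver exceeded the labelled pituitary by 0.62 (adjusted p = 0.0363), a call that was lost with the replicate number as a block (adjusted p = 0.0597) and after mitochondrial and ribosomal RNA were removed (0.22, adjusted p = 0.346). It was also lost without liver CON 1 or CON 4, or labelled pituitary CON 1, CON 2 or CON 4 (adjusted p of 0.0552 to 0.131). MGLL had the smallest passing step from liver to tail fat, 0.84 (SE 0.26, adjusted p = 0.0129), with 51.1 to 79.2 TPM in tail fat and 30.4 to 51.7 in liver, ranges that overlap slightly. ABHD5 did not pass between tail fat and liver (0.69, SE 0.36, adjusted p = 0.136), and its ranges of 18.4 to 92.0 TPM and 17.0 to 30.3 TPM overlapped. After quantile normalization that difference was 0.98 (adjusted p = 0.00179), and without mitochondrial and ribosomal RNA 1.40 (adjusted p = 0.000157). It was 0.24 without tail fat CON 2, and 1.00 without tail fat CON 4 (adjusted p = 0.0307).

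The coat genes split by tissue. PLIN2 was lower in tail fat than in liver (difference −4.12, SE 0.54, limma adjusted p = 6.03e-06), at 16.6, 69.3, 4.85 and 6.88 TPM in tail fat CON against 347, 177, 311 and 272 TPM in liver CON. Over the labelled hypothalamus and pituitary PLIN2 was higher in tail fat by 1.66 (adjusted p = 0.0116) and 1.48 (adjusted p = 0.0206). Without tail fat CON 2 these were 0.93, which passed, and 0.75, which did not (adjusted p = 0.0503), and the second was lost without labelled pituitary CON 3 too (adjusted p = 0.0519). PLIN1 showed the opposite order, with 142 to 751 TPM in tail fat and 0.28 to 5.69 TPM in liver (6.43, SE 0.48, adjusted p = 4.19e-09). PLIN2 relative to PLIN1 came to 0.0342 to 0.0924 in the former and 61.1 to 632 in the latter. PLIN4, a perilipin of adipocytes, was at 69.8 to 538 TPM in tail fat CON and at no more than 0.02 TPM in liver CON, 0.09 in labelled hypothalamus and 0.12 in labelled pituitary. PLIN5, which ties droplets to mitochondria in tissues that burn fat, was lower in tail fat than in liver (difference −1.21, SE 0.30, adjusted p = 0.00343), a call lost when mitochondrial and ribosomal RNA were removed (−0.62, adjusted p = 0.137). Its excess in tail fat over the labelled hypothalamus (0.70, adjusted p = 0.0499) was lost without a filter on low values (adjusted p = 0.0745) and with the replicate block (adjusted p = 0.0537). It was also lost in 7 of the 8 cases of leaving out 1 library of these groups, and the difference was 0.37 (adjusted p = 0.213) without tail fat CON 4.

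CIDEC stood in 3 tiers without overlap: 685 to 1419 TPM in tail fat CON, 5.84 to 10.0 TPM in liver CON, and at most 0.19 TPM in the labelled brain tissues. Tail fat exceeded liver by 6.86 (SE 0.23, limma adjusted p = 8.95e-14). Between the labelled hypothalamus and pituitary only PLIN1 passed (difference −1.52, SE 0.48, adjusted p = 0.0428), at 0.22 to 0.78 TPM against 2.59 to 3.82 TPM. That call was lost without a filter on low values (adjusted p = 0.0734), after quantile normalization (adjusted p = 0.0626), with the replicate block (adjusted p = 0.0768), and when any of the 8 labelled hypothalamus and pituitary control libraries was left out (adjusted p of 0.0621 at the lowest).

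**Figure D2:**
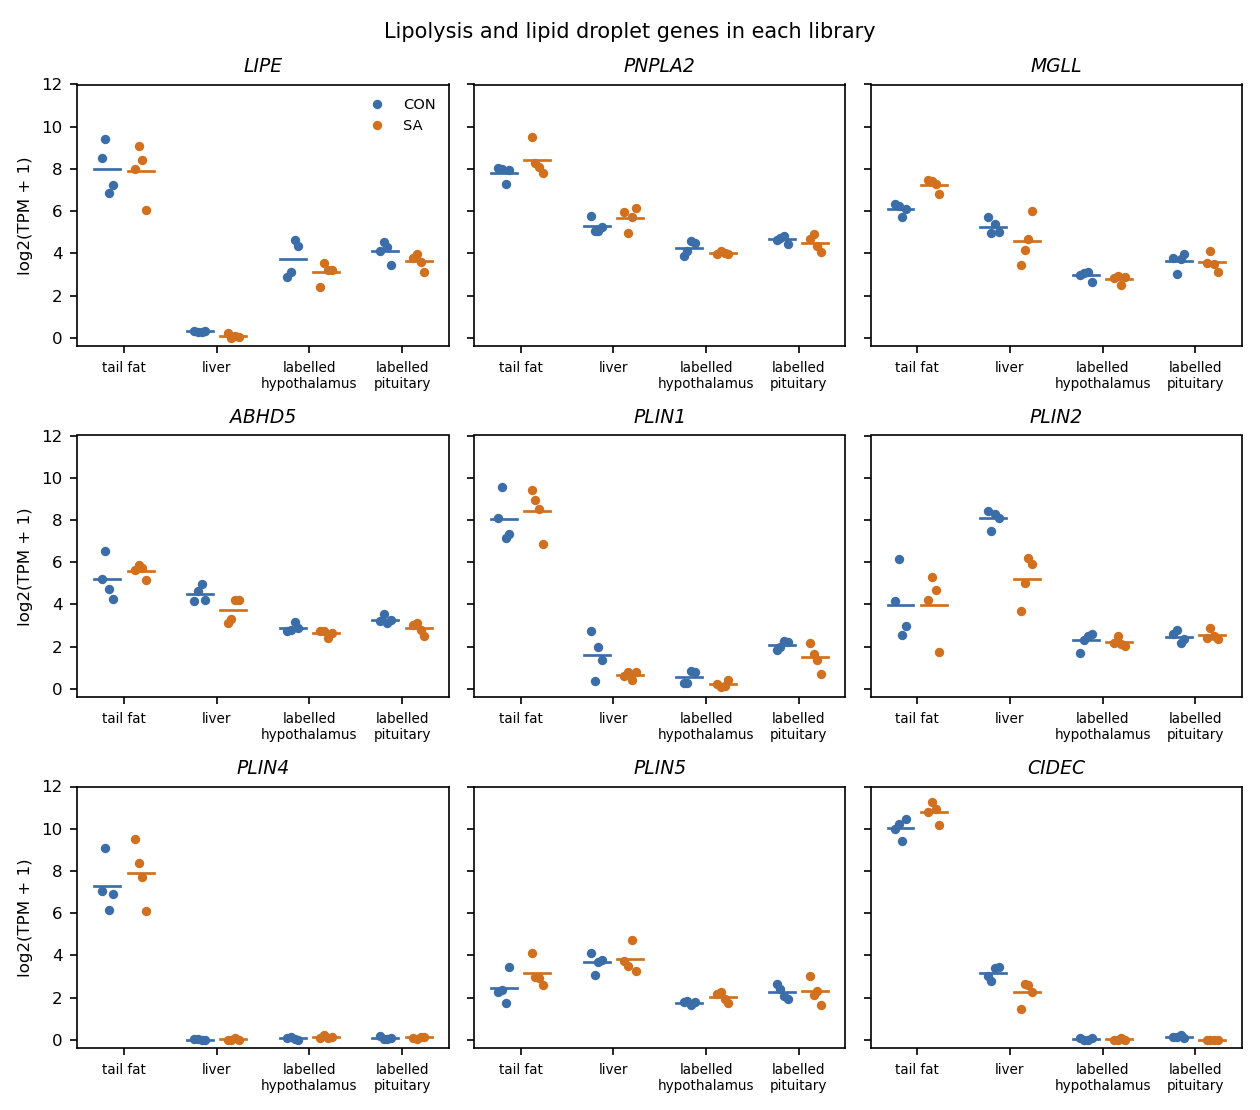
Level of each gene in every library as log2(TPM + 1) (y axis) by tissue (x axis), with CON in blue and SA in orange, 4 libraries per group, and lines at the group means. CIDEC, PLIN1, PLIN4 and LIPE are highest in tail fat, while PLIN2 is highest in liver CON and lower in each liver SA library.

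In tail fat, the depot for which the breed is known, the comparison of diets asks whether dietary succinic acid went with other levels of these genes. None of the 9 passed the test, where 78 of 11185 genes (0.697%) did. The median change of the 9 was 0.60 (SA minus CON, log2 scale) and that of all tested genes −0.06. The changes of 8 of the 9 were above 0, beside 46.5% of all genes, and that of LIPE was −0.12 (SE 0.67). After quantile normalization 6 of the 9 were above 0, with a median of 0.14 (all genes, 0.01). With mitochondrial and ribosomal RNA taken out, which moved the median of all genes to −0.41, 7 were, with a median of 0.24. MGLL alone had diets whose ranges did not overlap, 1 of 9 genes, where 4.63% of all tested genes lay wholly higher in SA.

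MGLL was at 79.2, 75.8, 51.1 and 68.8 TPM in CON 1 to 4 and at 179, 173, 155 and 112 TPM in SA 1 to 4. Every SA library was above every CON library, and the means were 68.7 ± 12.5 and 155 ± 30.0 TPM (SD, n = 4), a ratio of 2.25. The change of 1.16 (SE 0.40) had an unadjusted p of 0.0114 and a limma adjusted p of 0.215 over all genes, so it did not pass. It did pass when libraries were weighted by their variability (array weights, 1.09, adjusted p = 0.00177, where 13.1% of all genes passed as higher). It also passed when the mean of the adipocyte markers was added as a covariate, an alternative chosen after seeing the data (1.02, adjusted p = 0.0143, where 3.98% of all genes passed as higher). It did not pass after quantile normalization (0.68, adjusted p = 0.198) or with mitochondrial and ribosomal RNA taken out (0.81, adjusted p = 0.0805). Without CON 2 and SA 1 the change was 1.13 (adjusted p = 0.115).

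CIDEC was at 1021, 1189, 685 and 1419 TPM in CON and at 1763, 2428, 1934 and 1143 TPM in SA. The 3 highest libraries were SA, and SA 4 fell among the CON libraries. The change was 0.75 (SE 0.38, limma adjusted p = 0.393), and with array weights 0.84 (adjusted p = 0.00974). ABHD5 had 36.4, 92.0, 25.4 and 18.4 TPM in CON and 47.8, 57.0, 51.5 and 35.0 TPM in SA, with CON 2 above all others (0.40, adjusted p = 0.769, and 0.76 with adjusted p = 0.0378 under array weights). The SA libraries of ABHD5 lay closer together, with the highest 1.63 times the lowest against 5.01 times in CON.

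The other lipases overlapped between diets. PNPLA2 was at 260, 254, 158 and 245 TPM in CON and at 735, 308, 268 and 222 TPM in SA. SA 1 stood far above the rest and the change was 0.60 (SE 0.44, limma adjusted p = 0.559). LIPE was at 365, 689, 114 and 149 TPM in CON and at 258, 535, 345 and 64.9 TPM in SA, so that each diet held high and low libraries. Its ratio to PNPLA2 spanned 1 on both diets (CON, 0.607 to 2.72; SA, 0.292 to 1.74).

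The perilipins also overlapped between diets. PLIN1 was at 274, 751, 142 and 161 TPM in CON and at 688, 492, 362 and 114 TPM in SA (0.39, SE 0.61, limma adjusted p = 0.812). PLIN4 was at 131, 538, 69.8 and 120 TPM in CON and at 719, 329, 210 and 68.3 TPM in SA (0.63, SE 0.71, adjusted p = 0.731). For both genes CON 2 and SA 1 were the highest library of their diet and SA 4 the lowest of all 8. PLIN2 was at 16.6, 69.3, 4.85 and 6.88 TPM in CON and 17.2, 39.0, 24.8 and 2.32 TPM in SA, a spread of 14.3-fold and 16.8-fold, with a change of 0.03 (SE 0.83). PLIN5 was at 3.89, 4.18, 2.33 and 9.97 TPM in CON and 16.5, 6.96, 6.53 and 5.05 TPM in SA (0.69, SE 0.50, adjusted p = 0.548).

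Without CON 2 and SA 1 none of the 9 genes passed. The changes were then 0.29 for PNPLA2, 0.32 for LIPE, 0.84 for ABHD5 and 0.81 for CIDEC. For the perilipins they were 0.56 (PLIN1), 0.69 (PLIN2), 0.70 (PLIN4) and 0.34 (PLIN5). PNPLA2 and PLIN5 thus had smaller changes without these libraries, and ABHD5 and PLIN2 larger ones.

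Single libraries were low or high for most of the genes. CON 3 was the lowest control library for 8 of the 9 genes and SA 4 the lowest SA library for all 9, and the sum over the 9 genes ran from 1253 TPM in CON 3 to 4424 TPM in SA 1. Adipocyte markers, of which 17 of 18 were in the table and none is among the 9 genes, summed to 28515, 78386, 13210 and 13681 TPM in CON 1 to 4 and to 58125, 66764, 50303 and 21760 TPM in SA 1 to 4. No adipocyte marker was at 0 throughout a diet. The part of these marker levels in the gene levels was not tested beyond the covariate, with which the changes were −0.22 for PLIN1, −0.83 for PLIN2 and −0.09 for PLIN4, none of them passing. In bulk tissue, fewer cells of a type and less RNA per cell cannot be told apart.

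**Figure D3:**
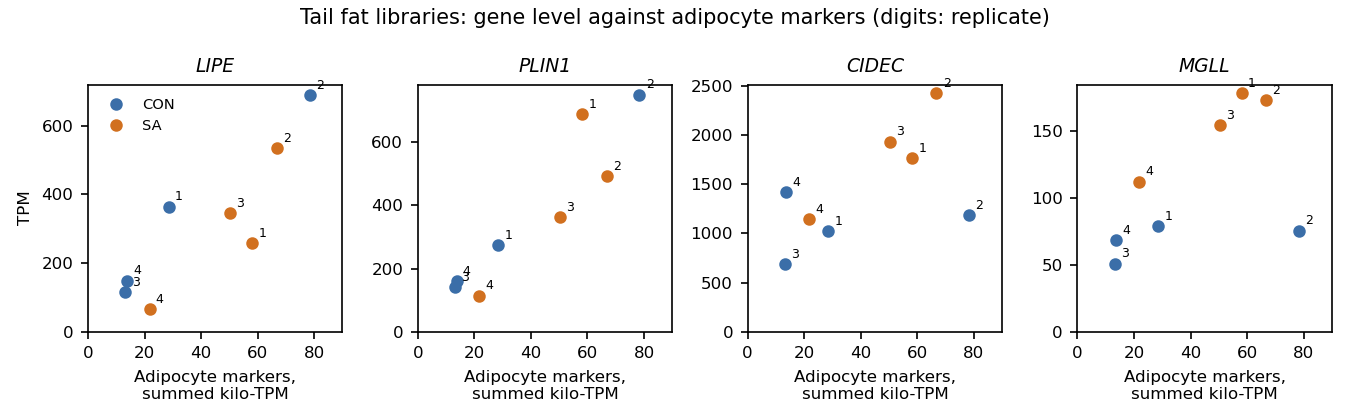
TPM of LIPE, PLIN1, CIDEC and MGLL (y axes) against the summed TPM of the adipocyte markers (x axis, scaled to kilo-TPM) in the 8 tail fat libraries, CON in blue and SA in orange, with the replicate number beside each point. MGLL lies at 51.1 to 79.2 TPM in CON, CON 2 with the highest marker sum included, and at 112 to 179 TPM in SA.

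Among genes around the pathway, none of 4 lists had a member past the threshold in tail fat. The lists were receptors and kinases of lipolysis signalling (23 tested), other droplet proteins (23), other lipases and fatty acid handling (15) and transcription factors of lipid storage (13), with median changes of 0.12, 0.46, 0.23 and 0.54. DGAT2 and SREBF1 were among the members with the smallest p, and neither passed. DGAT2, the last enzyme of triglyceride synthesis and also an adipocyte marker here, was at 143 to 615 TPM in CON and 614 to 3299 TPM in SA (2.05, SE 0.57, adjusted p = 0.111). SREBF1, a regulator of fatty acid synthesis, averaged 14.6 ± 10.6 TPM in CON and 74.7 ± 66.0 TPM in SA (2.10, SE 0.68, adjusted p = 0.173).

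In liver, PLIN2, the main droplet coat of hepatocytes, fell with SA. It was at 347, 177, 311 and 272 TPM in CON and at 12.0, 31.6, 72.2 and 59.2 TPM in SA, so that the lowest CON library was above the highest SA library. The means were 277 ± 73.4 and 43.8 ± 27.1 TPM (SD, n = 4), 6.32-fold apart, and the change was −2.87 (SE 0.52, limma adjusted p = 0.00105). PLIN2 and CIDEC were the only ones of 6 tested genes to pass, where 64.3% of all 11582 genes passed and 59.1% passed as lower, so a share of 2 in 6 is no more than that of the table.

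All 4 liver SA libraries differed from all 4 CON libraries in make-up. Their mitochondrial share was higher, as given above, hepatocyte markers (14 of 14 at a mean of 1 TPM or more in each diet, none at 0) summed to 9231 to 35670 TPM against 106343 to 127936 TPM in CON, and CCDC152 was at 168 to 842 TPM against 0. The fall was not particular to hepatocyte markers. In SA against CON, endothelial markers summed to 12.15 to 21.4 against 91.6 to 125 TPM and fibroblast markers to 17.0 to 32.5 against 101 to 207 TPM. Macrophage markers summed to 199 to 423 against 561 to 922 TPM. Smooth muscle and pericyte markers overlapped (22.05 to 53.4 against 47.05 to 88.3 TPM). Diet and make-up cannot be told apart in these libraries. The median change of all tested genes was −0.83, so each change is also given relative to it or under scalings that move that median to −0.09 (quantile normalization) or −0.08 (TPM recomputed without mitochondrial and ribosomal RNA).

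Relative to the median change PLIN2 was at −2.03. It passed under both scalings (−1.85, limma adjusted p = 0.0215, and −1.91, adjusted p = 0.0256). After quantile normalization 21.1% of all genes passed as lower. Leaving out any of the 8 libraries gave −3.19 to −2.36. CIDEC was at 7.11, 5.84, 9.74 and 10.0 TPM in CON and at 1.76, 5.27, 4.97 and 3.89 TPM in SA, with no overlap (−0.93, SE 0.29, adjusted p = 0.0179). That change was close to the median of all genes, and the call was lost under both scalings (−0.10, adjusted p = 0.833, and −0.11, adjusted p = 0.861) and without CON 3 or CON 4 (adjusted p = 0.0519 and 0.0509). PLIN2 and CIDEC made 2 of 6 tested genes wholly lower in SA, where 54.2% of all tested genes were. LIPE was too low to be tested, at 0.23 to 0.26 TPM in CON and 0 to 0.18 TPM in SA.

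PNPLA2 did not follow the general fall. It was at 53.6, 32.2, 32.3 and 37.0 TPM in CON and at 61.2, 30.0, 51.9 and 69.8 TPM in SA, ranges that overlap (0.41, SE 0.31, limma adjusted p = 0.268). Relative to the median of all genes it was 1.25 higher. It passed as higher under both scalings, by 1.44 (adjusted p = 0.000975) and 1.39 (adjusted p = 0.00158), where 16.3% and 14.8% of all genes passed as higher. Without SA 2 it passed on the deposited scale too (0.66, adjusted p = 0.0352), and without SA 4 the change was 0.26.

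The ratio of PLIN2 to PNPLA2, chosen after the values were seen, is not moved by any scaling of a whole library. In liver it was 5.49 to 9.63 on CON and 0.197 to 1.39 on SA, without overlap. The ratio of ABHD5 to PNPLA2, coactivator to lipase, was 0.318 to 0.938 in CON and 0.128 to 0.342 in SA, overlapping slightly. A ratio shows unequal change and does not tell which gene moved.

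The remaining liver genes did not pass on the deposited scale. ABHD5 was at 17.0, 23.9, 30.3 and 17.6 TPM in CON and 7.82, 9.02, 17.8 and 17.8 TPM in SA (−0.77, SE 0.32, limma adjusted p = 0.0583), and the change turned to 0.17 and 0.16 under the scalings and passed with array weights (−0.85, adjusted p = 0.0333). It also passed without SA 3 or SA 4 (adjusted p = 0.0385 and 0.0330). MGLL was at 51.7, 30.4, 40.5 and 30.9 TPM in CON and 9.93, 17.2, 24.6 and 63.5 TPM in SA (−0.68, SE 0.48, adjusted p = 0.238). SA 4 was its highest liver library of all, the other SA libraries lay below every CON library, and the change turned to 0.30 and 0.26 under the scalings. Without SA 4 the change was −1.16 (adjusted p = 0.0155), and without SA 1 it was −0.31. PLIN5 was at 7.46 to 16.4 TPM in CON and 8.73 to 25.2 TPM in SA (0.13, SE 0.34, adjusted p = 0.753). That was 0.96 above the median change of all genes, and the change was 1.03 (adjusted p = 0.0505) and 1.07 (adjusted p = 0.050003) under the scalings, neither of which passed. PLIN1 (0.28 to 5.69 TPM in CON, 0.32 to 0.73 in SA) and PLIN4 (at most 0.05 TPM) were below the filter on low values.

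**Figure D4:**
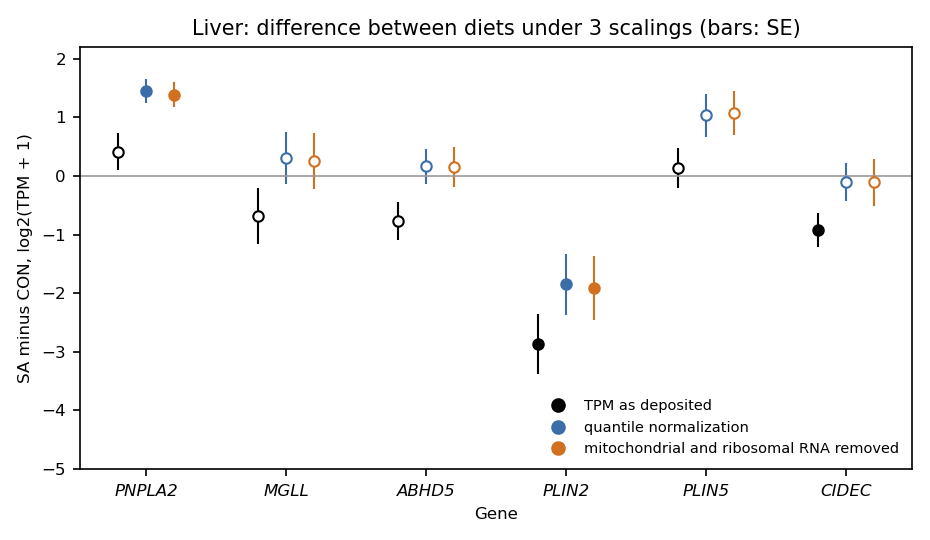
Difference between diets in liver (y axis, SA minus CON, log2(TPM + 1), bars are SE) for the 6 tested genes (x axis) under the deposited scale (black), quantile normalization (blue) and removal of mitochondrial and ribosomal RNA (orange), with filled points for an adjusted p under 0.05. PLIN2 is filled and below 0 on all 3 scales (−2.87, −1.85 and −1.91), whereas CIDEC is filled on the deposited scale only and PNPLA2 on the other 2.

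The lists around the pathway fell in liver with most of the table. Lipolysis signalling had 18 of 20 tested genes lower and none higher (median −1.27), other droplet proteins 19 of 23 lower and 1 higher (median −1.25), other lipases and fatty acid handling 9 of 18 lower (median −0.65) and transcription factors 7 of 13 lower (median −0.69), beside 59.1% lower and a median of −0.83 for all genes. After quantile normalization the counts lower were 5, 5, 3 and 4 and the counts higher 0, 3, 0 and 2, where 21.1% of all genes passed as lower and 16.3% as higher. Among genes lower on all 3 scales was PRKAR1A, a regulatory subunit of protein kinase A, which went from 85.2 ± 9.60 to 19.9 ± 1.61 TPM (−2.04, and −1.01 and −1.10 under the scalings). Its catalytic partner PRKACA went from 29.7 ± 6.12 to 6.93 ± 1.94 TPM (−1.96, −1.07 and −1.10). The endothelial lipase LIPG was at 31.7 to 103 TPM in CON and 0.32 to 2.77 TPM in SA (−4.80, −3.94 and −4.32). FITM2, a droplet assembly protein of the endoplasmic reticulum, went from 21.2 ± 5.04 to 3.45 ± 0.90 TPM (−2.31, −1.46 and −1.54). Its relative FITM1 was listed at 0 in all CON libraries and at 1.93 to 17.0 TPM in SA. FITM1 was the 1 droplet protein that passed as higher on the deposited scale. It met the filter through its SA libraries alone, so its passing was given by the filter. FOXO1, a transcription factor under insulin control, was at 7.61 to 10.2 TPM in CON and 0.61 to 1.23 TPM in SA (−2.39, −1.69 and −1.95).

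In the libraries labelled hypothalamus none of 6 tested genes passed, and neither did any of the 14126 genes tested (0%), with 493 genes at an unadjusted p under 0.05. LIPE was at 6.44, 7.64, 23.5 and 19.3 TPM in CON and 4.40, 10.6, 8.41 and 8.24 TPM in SA (−0.64, SE 0.41, limma adjusted p = 0.947). CON 3 and CON 4 stood above the other 6 libraries, and in these same libraries the oligodendrocyte markers summed to 18460 TPM or more against 2153 to 6992 TPM in the rest. PNPLA2, the other lipase that was highest there, had 13.6, 16.2, 23.4 and 21.6 TPM in CON and 14.5 to 16.3 TPM in SA. The part of oligodendrocyte RNA in these levels was not tested. PLIN1 was under 1 TPM throughout, at 0.78 and 0.75 in CON 3 and CON 4 and at 0.08 to 0.34 in the rest.

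In the libraries labelled pituitary none of 7 tested genes passed, nor did any of 14472 genes (0%), with 218 at an unadjusted p under 0.05. The median change of all tested genes was −0.27. SA 4 was the lowest SA library for all 7 genes, held 67.4% mitochondrial transcripts against 36.4% to 50.6% in the other 7 libraries, and had neuron markers summing to 1397 TPM against 3073 to 5221 TPM. ABHD5 was at 8.20, 10.6, 7.69 and 8.49 TPM in CON and 7.18, 7.62, 5.92 and 4.71 TPM in SA, with no overlap (−0.41, SE 0.26, limma adjusted p = 0.747). CIDEC was at 0.07 to 0.19 TPM in CON and listed at 0 in SA, values too low for a test. ABHD5 was thus 1 of 7 tested genes that lay wholly lower in SA, where 0.850% of all tested genes did. PLIN1 was at 2.59, 2.91, 3.82 and 3.67 TPM in CON and 3.56, 2.19, 1.59 and 0.64 TPM in SA, where SA 1 lay among the CON libraries (−0.59, SE 0.31, adjusted p = 0.747).

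**Figure D5:**
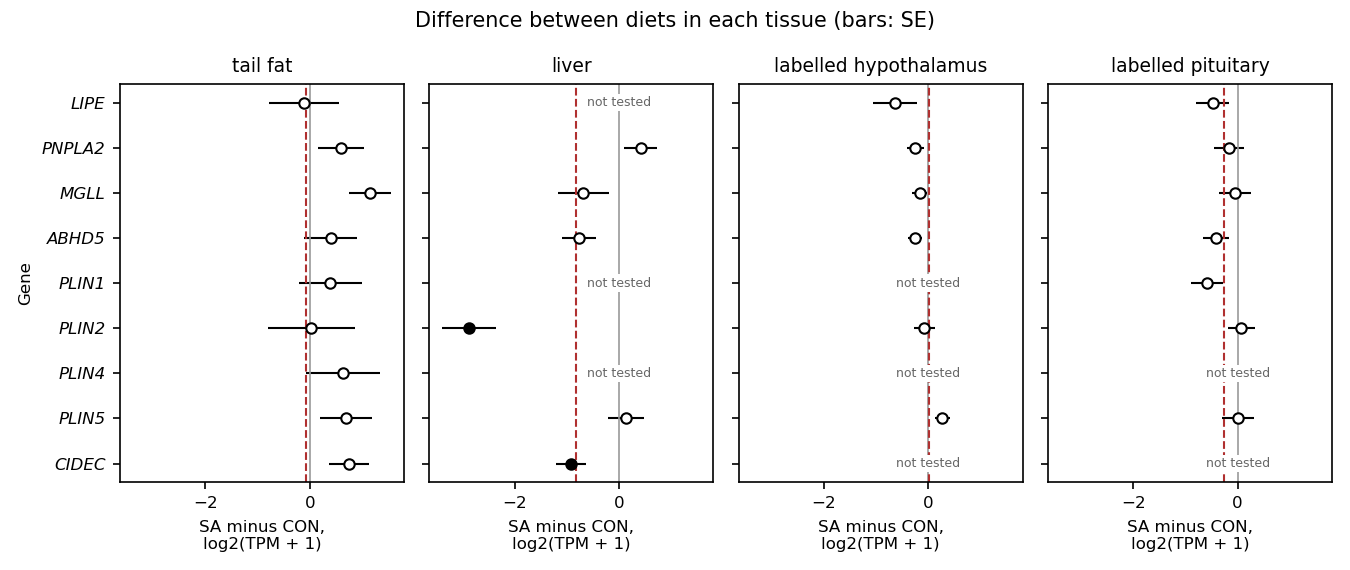
Difference between diets (x axis, SA minus CON, log2(TPM + 1), bars are SE) for each gene (y axis) in the 4 tissues, with filled points for an adjusted p under 0.05 and the median change of all tested genes as a dashed red line. Only PLIN2 (−2.87) and CIDEC (−0.93) in liver are filled, and CIDEC lies near the dashed line at −0.83.

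The interaction of diet and tissue (limma, F-test, 3 degrees of freedom, 32 libraries) asks whether the difference between diets itself differed between tissues. It passed for CIDEC (adjusted p = 0.00697), PLIN2 (adjusted p = 0.0208) and MGLL (adjusted p = 0.0251), 3 of 9 genes, where 27.0% of all genes passed. Their changes were 0.75 in tail fat and −0.93 in liver for CIDEC, 0.03 and −2.87 for PLIN2, and 1.16 and −0.68 for MGLL. Under quantile normalization none of the 3 passed (adjusted p = 0.523, 0.0963 and 0.427), and PNPLA2 passed in their place (adjusted p = 0.00153), 1 of 9 genes beside 30.1% of all. Without the liver libraries no gene of the 9 passed.

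The genes closest in pattern were sought over the 32 libraries after subtraction of each group mean, as the highest Pearson correlations among 12864 genes, given as a description of libraries that share their make-up. For PLIN4 these included MYL12B (r = 0.95) and PIEZO1 (0.94), and for LIPE SNX1 (0.93), ACER3 (0.92) and ZEB2 (0.91). Outside tail fat PLIN4 was at most 0.19 TPM, so its pattern comes almost wholly from the 8 tail fat libraries. PLIN2 was closest to SFXN2 (0.92) and CFLAR (0.90), and MGLL to WNT2 (0.82) and ENTPD8 (0.82). CIDEC had the least close partners, with ANTXR1 at 0.81 and MMP19 at 0.75. Over the 8 tail fat libraries alone the closest gene was MSN for PLIN1 (r = 0.997), RAB4B for PLIN4 (0.997), PRIM2 for PLIN2 (0.996), SERINC2 for MGLL (0.99) and SCRN2 for CIDEC (0.97). None of these partners is itself one of the 9 genes.

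By position, PLIN4 and PLIN5 are neighbours in the RefSeq annotation of the sheep assembly ARS-UI_Ramb_v3.0, yet PLIN4 was near 0 in the liver and PLIN5 was not. In that annotation PLIN1 overlaps PEX11A, PLIN4 overlaps HDGFL2, CIDEC overlaps JAGN1 and ABHD5 overlaps an uncharacterised locus. The strand setting of the counting is not given in the sources used here, so reads of overlapping genes may not be told apart.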

How the data were processed

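RNA was extracted from the 4 tissues, captured by its poly(A) tail and made into stranded libraries, per the labels' protocols. The authors ran fastp, HISAT2 and RSEM (per the submitters' processing notes, with versions, genome build and annotation not given in the sources used here). They deposited TPM, length-corrected transcript shares estimated within each library, with no scaling between libraries, and the depth per library is unknown. The table also held 8 columns of the authors' group means, which were not used.

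The filter kept genes that reached 1 TPM in at least as many libraries of the comparison as its smallest group held. That was 4, or fewer where libraries were left out. For the interaction it asked for 4 libraries of any 1 tissue. The kept genes were tested on log2(TPM + 1) with limma 3.58.1 (statmod 1.5.0, R 4.3.3), using empirical Bayes moderation with trend and robust settings, two-sided, adjusted by Benjamini-Hochberg over all genes tested at a threshold of 0.05. Fold changes on this scale are understated for low genes. Per the labels' protocols 4 sheep per diet gave all 4 tissues, so tissue comparisons and the interaction treat libraries of the same sheep as independent, because the numbers could not be tied to sheep. Each tissue was fitted alone for diet, tissues were compared in 1 fit of the 16 control libraries, and the interaction was an F-test over 32 libraries. Descriptions, ratios and figures used Python 3.11.15. The scripts were tested on simulated data. Alternatives were another pseudocount (0.1), no filter, quantile normalization, removal of mitochondrial and ribosomal RNA, array weights, a replicate block, leaving out libraries and an adipocyte covariate.

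The members and lists were chosen with earlier results of these data known. All members are named; from each of 4 pathway lists up to 4 genes per direction with the smallest p among those past the threshold could be named, or up to 2 where none passed, and 3 partners per member by correlation. RefSeq symbols of another assembly served only to see which genes neighbour or overlap each other. No sequence was used here. Some genes that this rule would name are not reported here.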

Additional observations from a re-analysis of the deposited data

Results flagged for a closer look

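In 4 of 57 groups of 4 libraries examined, 1 library lay far from the other 3, measured as its gap over the whole range; chance flags about 1 group in 20. All 4 were in tail fat. PNPLA2 was lowest in CON 3, at 157.77 TPM against 245 to 260 TPM in the other control libraries, and highest in SA 1, at 735.25 TPM against 222 to 308 TPM. PLIN5 was also highest in SA 1, at 16.48 TPM against 5.05 to 6.96 TPM. PLIN4 was highest in CON 2, at 538.37 TPM against 69.8 to 131 TPM. CON 2 and SA 1 are the tail fat libraries with CCDC152 near 0, and CON 3 had the highest mitochondrial share of tail fat, 70.6%. In CON 2 and SA 1, skeletal muscle markers summed to 131 and 65.6 TPM, against 2.49 to 15.8 TPM in other tail fat libraries. Fibroblast markers summed there to 1836 and 1997 TPM, against 405 to 938 TPM in the others. The part of these measures in the levels was not tested.

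The difference between diets differed between tissues for CIDEC (limma adjusted p of the interaction = 0.00697), PLIN2 (adjusted p = 0.0208) and MGLL (adjusted p = 0.0251). These were 3 of 9 genes, where 27.0% of all genes passed, and none of the 3 passed after quantile normalization (adjusted p = 0.523, 0.0963 and 0.427). The liver SA libraries, which differ in make-up from liver CON, enter these tests.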

How the results depend on the processing

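TPM holds no read counts, so the counting error of low values is unknown, and 4 libraries per group limit precision. PLIN2 in liver passed under every alternative run. The counts of genes called moved as follows. In liver 3 genes passed without a filter on low values and 3 with array weights, against 2, and 1 to 4 when 1 library was left out (over all genes 8241 and 7708 were called, against 7445, and 6858 to 7790 with 1 library left out). The filter followed the size of the smaller group, so 7 genes were tested, against 6, when liver CON 2 or any single liver SA library was left out. The added gene was PLIN1, which met the filter through its control libraries alone. It was the added call without CON 2, which therefore does not count as support. In tail fat 3 passed with array weights and 1 with the adipocyte covariate, which was chosen after seeing the data, against 0 (over all genes 2839 and 2570, against 78). The interaction was called for 1 gene after quantile normalization, 1 after removal of mitochondrial and ribosomal RNA and 0 without the liver libraries, against 3 (over all genes 4920, 5541 and 205, against 4414). Labelled hypothalamus against pituitary gave 0 without a filter, 0 after quantile normalization, 3 with array weights and 0 to 1 when 1 library was left out, against 1 (over all genes 2391, 2644 and 5323, against 2087). The causes were not tested.

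Directions that turned, none of them passing in either form, were these. With quantile normalization and with removal of mitochondrial and ribosomal RNA the changes were 0.17 and 0.16 for ABHD5 and 0.30 and 0.26 for MGLL in liver, and 0.13 and 0.058 for PNPLA2 and 0.23 and 0.17 for MGLL in labelled pituitary. In tail fat LIPE gave 0.43 with array weights and 0.32 without CON 2 and SA 1, PLIN1 −0.088 (quantile) and −0.22 (covariate), PLIN2 −0.00051 (quantile), −0.31 (removal) and −0.83 (covariate), and PLIN4 −0.090 (covariate). PLIN5 in labelled pituitary gave −0.0051 at a pseudocount of 0.1. After quantile normalization PLIN1 was 0.69 for liver minus labelled pituitary and PLIN2 0.038 for labelled hypothalamus minus pituitary. When 1 library was left out, changes ranged from −0.17 to 0.30 for PLIN5 in liver, −0.51 to 0.50 for LIPE and −0.44 to 0.78 for PLIN2 in tail fat, −0.27 to 0.033 for PLIN2 in labelled hypothalamus, and −0.24 to 0.11 for MGLL, −0.048 to 0.18 for PLIN2 and −0.24 to 0.22 for PLIN5 in labelled pituitary. Between tissues they ranged from −0.15 to 0.42 for PLIN5 (tail fat minus labelled pituitary) and −0.29 to 0.013 for PLIN2 (labelled hypothalamus minus pituitary).

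The 4 tissues of a diet came from the same 4 sheep, but the labels do not say that the numbers mark them. Deviations of same-numbered libraries correlated at −0.30 to 0.34, and no pair of groups had all correlations above 0.1. Labelled hypothalamus and pituitary SA came nearest, at 0.0928 to 0.339. There, between liver and tail fat CON, and between liver and labelled pituitary SA, 4 of 4 libraries correlated best with their own number, a hint from the data and not from the design. With the replicate block 2 genes passed in liver, 0 in tail fat, 0 in each labelled brain tissue and 3 for the interaction. For tissue comparisons it gave 8, 8, 8, 7, 6 and 0 in place of 8, 9, 8, 7, 7 and 1. Between diets within a tissue the block joined equal-numbered CON and SA libraries, which come from different sheep. There it allowed for no shared animal.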
